A study of Mus musculus with 48 samples.

Results

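Serpins were examined in the skin of mice given inhibitors of DGAT1, the acyltransferase that completes triglyceride synthesis. The members were all probesets whose gene symbol is Serpin followed by a clade letter from a to i, a number and at most 1 further letter. This rule found 47 probesets of 44 genes among 38385 probesets on the custom Affymetrix array, of which 24478 name a single gene. Clade A held 15 of the genes, clade B 22, clade I 2, and clades D, E, F, G and H 1 each. Of the 47 probesets, 32 lay above the 25th percentile of mean log2 intensity, which was 2.93, and were tested. The other 15 were Serpina16, Serpina1f, Serpina3i, Serpina5, Serpina6, Serpina7, Serpinb1b, Serpinb3a, Serpinb3c, Serpinb3d, Serpinb9c, Serpinb9d, Serpini2 and 1 of the 2 probesets each of Serpinb9 and Serpini1. No mouse exceeded 3.97 in log2 intensity on any of these 15.

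The 48 mice were male diet-induced obese C57BL/6 animals on a high-fat diet, labelled as 8 weeks of age, dosed orally for 14 days, and sampled as dorsal skin by the labels (dorsal and/or ventral skin by the study's methods). Study 1 held 8 mice each on methylcellulose vehicle, Cpd1 and Cpd2. Study 2 held 4 mice each on vehicle, Cpd2 and Cpd6, and Study 4 held 4 mice each on vehicle, Cpd18 and Cpd6. The study classed Cpd2 and Cpd6 as skin-positive, meaning that they produced sebaceous gland atrophy, and Cpd1 and Cpd18 as skin-negative. For its histology the study gives a lower dose of Cpd1 than of Cpd2, so their values are not taken as matched in dose. Cpd2, Cpd6 and Cpd18 are taken to share the default dose of the study's methods, since no other was found for them. Of 20 listed genes of differentiated keratinocytes 15 were measured above the filter, and of 19 of the sebaceous gland 18. So were 19 of 21 genes of skeletal muscle and 8 of 14 of liver. The filter passes 28789 of all 38385 probesets, so these counts do not test the label of skin.

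Serpins are protease inhibitors that act once. The target protease cleaves an exposed reactive loop, the serpin refolds, and the protease is trapped in a covalent complex. Clade A serpins are mostly secreted and many circulate in plasma, whereas clade B serpins mostly stay inside cells and are abundant in stratified epithelium, where they meet kallikreins, cathepsins and granzymes. In the mouse several ancestral genes have multiplied into local clusters, among them the relatives of Serpina3 on chromosome 12 and of Serpinb6 and Serpinb1 on chromosome 13.

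In the skin-positive groups a small set of these clustered genes fell, while most of the family was not called. Serpinb6d, Serpinb6e and Serpina3b were lower in all 4 comparisons of a skin-positive compound with its vehicle. Serpinb6c and Serpina3j were called lower in 3 of those 4 comparisons and Serpinb1c in 2. A gene was called where the Benjamini-Hochberg adjusted p of the limma fit over all 28789 tested probesets was under 0.05. With Cpd2 in Study 1, 8 of the 32 tested serpin probesets were called higher (7 genes) and 6 lower, against 7.09% and 6% of all probesets tested. With Cpd2 in Study 2 the counts were 0 higher and 3 lower, against 0.0417% and 0.0868%. With Cpd6 in Study 2 they were 0 and 5, against 0.0903% and 0.288% (0.379% in either direction), and with Cpd6 in Study 4 they were 0 and 9, against 4.56% and 6.17%. The skin-negative Cpd1 gave 2 higher and 1 lower, against 0.247% and 0.0799%. Cpd18 gave 0 calls, against 0.00347% in either direction, with 4 serpins at an unadjusted p under 0.05. The median log2 fold change over the 32 probesets was 0.11 with Cpd2 in Study 1, 0.04 with Cpd2 in Study 2, −0.01 with Cpd6 in Study 2 and −0.17 with Cpd6 in Study 4. Over all probesets those medians were 0.04, 0.02, 0.02 and 0.01. Counted by mice, 6 probesets had every Cpd2 mouse of Study 1 above and 4 had every one below its vehicle mice, against 1.49% and 0.417% of all probesets. The counts were 0 and 5 with Cpd2 in Study 2 (1.89% and 1.45%), 2 and 6 with Cpd6 in Study 2 (4.31% and 2.52%) and 0 and 8 with Cpd6 in Study 4 (8.82% and 10.1%). They were 1 and 0 with Cpd1 (0.125% and 0.0521%) and 0 and 1 with Cpd18 (1.9% and 1.98%), the last being Serpinb11. Comparisons within a study share their vehicle mice, and the p-values of these comparisons measure the spread between mice of 1 study. In whole skin, fewer cells of a type and less RNA per cell cannot be told apart.

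**Figure D1:**
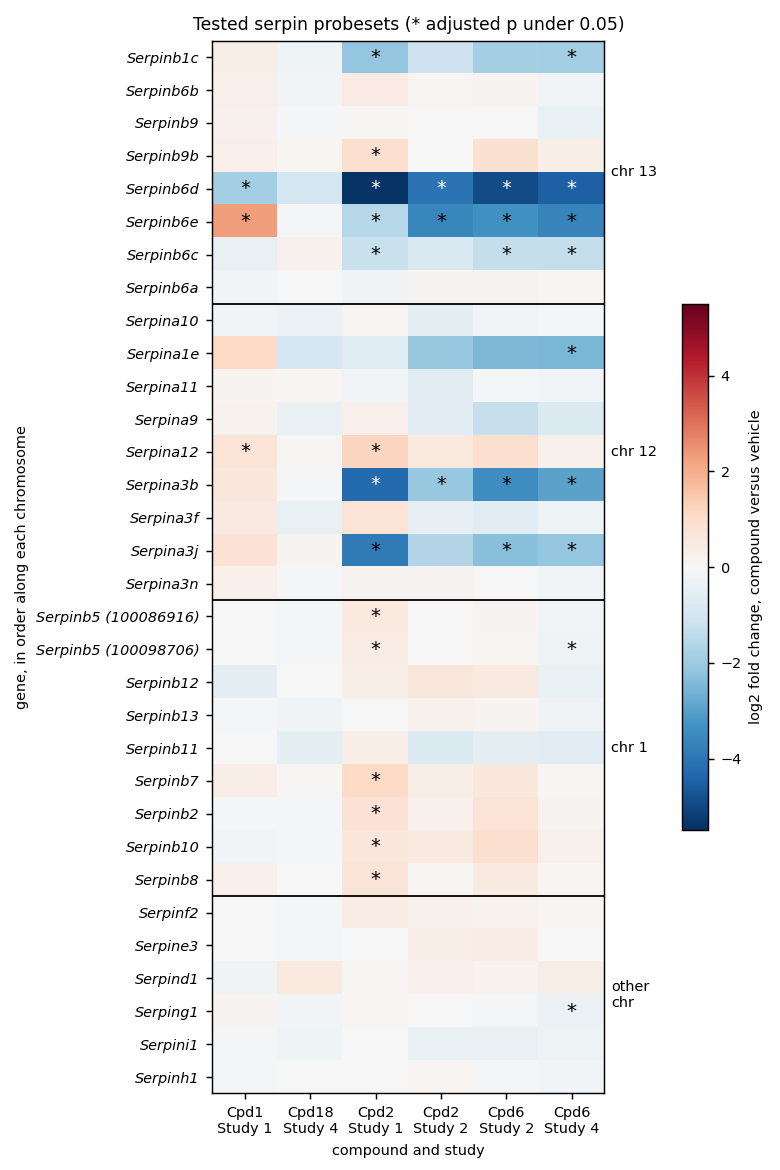
Log2 fold change (colour scale) of each of the 32 tested serpin probesets (rows) in each comparison (columns), with marks where the limma adjusted p was under 0.05. The lowered members are few and recur across the skin-positive columns, with Serpinb6d the deepest at −5.39 in Study 1, whereas the raised members are called mainly with Cpd2 in Study 1.

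The lowered genes are shown first with the 250 bases before their start sites. Serpinb6d and Serpinb6e, which moved together in Studies 2 and 4, share most of this sequence at the Serpinb6d start site shown. The sequences are from RefSeq on build GRCm38.p6, 5′ to 3′ on the gene's strand. Promoters were found for 39 of the 44 genes, 48 in all. Serpinb6d is on chr13:33661155-33661404 (plus strand), Serpinb6e on chr13:33843409-33843658 (minus strand) and Serpinb6c on chr13:33905192-33905441 (minus strand), and these 3 genes follow each other in this order among the serpins. Capitals mark every match, on either strand, to the motifs searched. These were AGGTCA, an element bound by nuclear receptors, the promoter box TATAAA, the CCAAT box, the AP-1 element TGANTCA and the element TTGCNNAA of C/EBP factors. The E-box CACGTG, the sterol response element TCACNCCAC, a direct repeat of AGGTCA with 1 base between, and an inverted repeat of it (AGGTCA, then 8 bases, then its reverse complement) were searched as well.
Serpinb6d: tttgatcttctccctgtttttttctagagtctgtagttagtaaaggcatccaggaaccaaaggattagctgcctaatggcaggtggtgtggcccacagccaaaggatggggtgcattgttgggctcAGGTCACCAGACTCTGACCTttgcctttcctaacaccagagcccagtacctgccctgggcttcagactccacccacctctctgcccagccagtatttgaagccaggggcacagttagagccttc
Serpinb6e: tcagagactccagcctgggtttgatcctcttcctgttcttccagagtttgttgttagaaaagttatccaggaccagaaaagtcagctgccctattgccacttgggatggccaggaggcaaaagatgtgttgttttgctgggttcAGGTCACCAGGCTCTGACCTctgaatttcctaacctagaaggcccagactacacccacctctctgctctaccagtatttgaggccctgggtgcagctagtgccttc
Serpinb6c: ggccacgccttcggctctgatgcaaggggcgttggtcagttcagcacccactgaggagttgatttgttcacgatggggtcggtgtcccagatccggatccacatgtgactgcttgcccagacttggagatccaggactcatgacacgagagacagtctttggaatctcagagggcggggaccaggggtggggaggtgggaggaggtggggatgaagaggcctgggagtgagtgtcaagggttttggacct
The aligned promoters of Serpinb6d and Serpinb6e were identical at 181 bases (67.0% of the alignment), those of Serpinb6d and Serpinb6c at 46.7% and those of Serpinb6e and Serpinb6c at 42.0%. Both Serpinb6d and Serpinb6e hold AGGTCA facing its own reverse complement across 8 bases, beginning at −124 from the start site in Serpinb6d and at −106 in Serpinb6e. Serpinb6d has a further listed start site, from which the same element begins at −194. The 250 bases before that site were identical with those of Serpinb6e at 128 bases (37.9% of the alignment). Of 32851 promoters of this length, 3 (0.00913%) hold this inverted repeat, and these are the 2 of Serpinb6d and that of Serpinb6e. This motif was added after the sequences had been seen, it contains AGGTCA, and it reads the same on both strands. AGGTCA alone was in 14.0% of all promoters and in 14 of the 48 serpin promoters. No searched motif matched in the window of Serpinb6c. A match is a description of letters and shows neither binding nor control.

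Serpinb6d, a rodent relative of Serpinb6a, the intracellular inhibitor of cathepsin G, had the largest change of any serpin. In Study 1 its log2 intensity in the vehicle mice ran from 9.15 to 10.89 with a median of 10.32, and with Cpd2 from 3.40 to 5.97 with a median of 4.85. In Study 2 the vehicle mice read 7.86, 6.54, 8.18 and 6.88, the Cpd2 mice 2.39, 3.89, 3.75 and 3.19, and the Cpd6 mice 2.18, 2.35, 2.56 and 2.63. In Study 4 the vehicle mice read 7.59, 7.33, 6.46 and 7.06, the Cpd6 mice 2.71, 2.52, 2.85 and 2.32, and the Cpd18 mice 5.51, 5.85, 7.01 and 6.25. No mouse on a skin-positive compound reached the vehicle mice of its study, and all 8 Cpd6 mice were below the filter level of 2.93, where array background limits how large a difference can be read. The log2 fold change was −5.39 (SE 0.34, adjusted p = 1.49e-10) with Cpd2 in Study 1, a level 42.0-fold lower. It was −4.06 (SE 0.36, adjusted p = 0.000113) with Cpd2 in Study 2. With Cpd6 it was −4.93 (SE 0.36, adjusted p = 8.23e-06) in Study 2 and −4.51 (SE 0.28, adjusted p = 7.75e-07) in Study 4. It was also lower with the skin-negative Cpd1, whose mice ran from 6.88 to 9.47 (median 8.46) and overlapped with vehicle (log2 fold change −1.86, SE 0.34, adjusted p = 0.0128), a call lost with Hox genes as a covariate. With Cpd18 it was −0.95 (SE 0.28, 95% interval −1.56 to −0.35), which did not pass after adjustment (adjusted p = 0.402), and 1 of the 4 Cpd18 mice lay within the vehicle range. Cpd6 was lower than Cpd18 by −3.55 on the log2 scale (SE 0.28, adjusted p = 6.65e-06).

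Serpinb6e, the neighbouring relative, also fell in every skin-positive group. In Study 2 the vehicle mice read 7.41, 6.42, 6.82 and 6.36, the Cpd2 mice 3.75, 3.27, 3.38 and 2.23, and the Cpd6 mice 3.39, 3.90, 2.53 and 3.78. In Study 4 the vehicle mice read 6.73, 7.10, 6.55 and 6.71, the Cpd18 mice 6.03, 7.56, 6.88 and 6.24, and the Cpd6 mice 3.29, 2.67, 3.15 and 3.34. The skin-positive groups did not overlap with vehicle in these studies, and the Cpd18 mice lay on both sides of the vehicle range. The log2 fold changes were −3.60 (SE 0.35, adjusted p = 0.000303) with Cpd2 and −3.35 (SE 0.35, adjusted p = 0.00024) with Cpd6 in Study 2, and −3.66 (SE 0.27, adjusted p = 3.21e-06) with Cpd6 in Study 4. In Study 1 its levels followed another order. The vehicle mice ran from 4.29 to 6.59 with a median of 5.73, the Cpd1 mice from 7.24 to 8.52 with a median of 7.99, and the Cpd2 mice from 2.54 to 5.14 with a median of 4.30. The Cpd1 mice were all above the vehicle mice, and the Cpd2 and vehicle ranges overlapped. The log2 fold change was −1.57 (SE 0.32, adjusted p = 0.00152) with Cpd2 and 2.29 (SE 0.32, adjusted p = 0.0011) with Cpd1. Serpinb6c, the third gene of the run, fell by less. It ran from 8.67 to 10.42 (median 10.07) in the Study 1 vehicle mice and from 7.87 to 9.23 (median 8.65) with Cpd2, which overlapped. In Study 4 its vehicle mice read 8.06, 8.33, 8.04 and 8.50 and its Cpd6 mice 7.04, 6.55, 7.19 and 6.86, with no overlap. Its log2 fold change was −1.24 (adjusted p = 0.000258) with Cpd2 in Study 1, −1.29 (adjusted p = 0.0142) with Cpd6 in Study 2 and −1.32 (adjusted p = 8.72e-05) with Cpd6 in Study 4. With Cpd2 in Study 2 it was −0.83 and did not pass (adjusted p = 0.274), although all 4 Cpd2 mice were below the vehicle mice. The Study 2 call with Cpd6 was lost on leaving out any of 3 of the 8 mice (Cpd6 replicates 1 and 3 and vehicle replicate 3), with the replicate number as a block and with the sebaceous gland mean as a covariate. The Study 1 call was lost with the muscle mean as a covariate (−0.79, adjusted p = 0.0507) and with the gland mean (−0.25, adjusted p = 0.487). Serpinb6a itself was called in none of the 9 comparisons, with log2 fold changes from −0.19 to 0.15. The probe sequences were not used here, so how far these related genes share signal on the array was not tested.

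**Figure D2:**
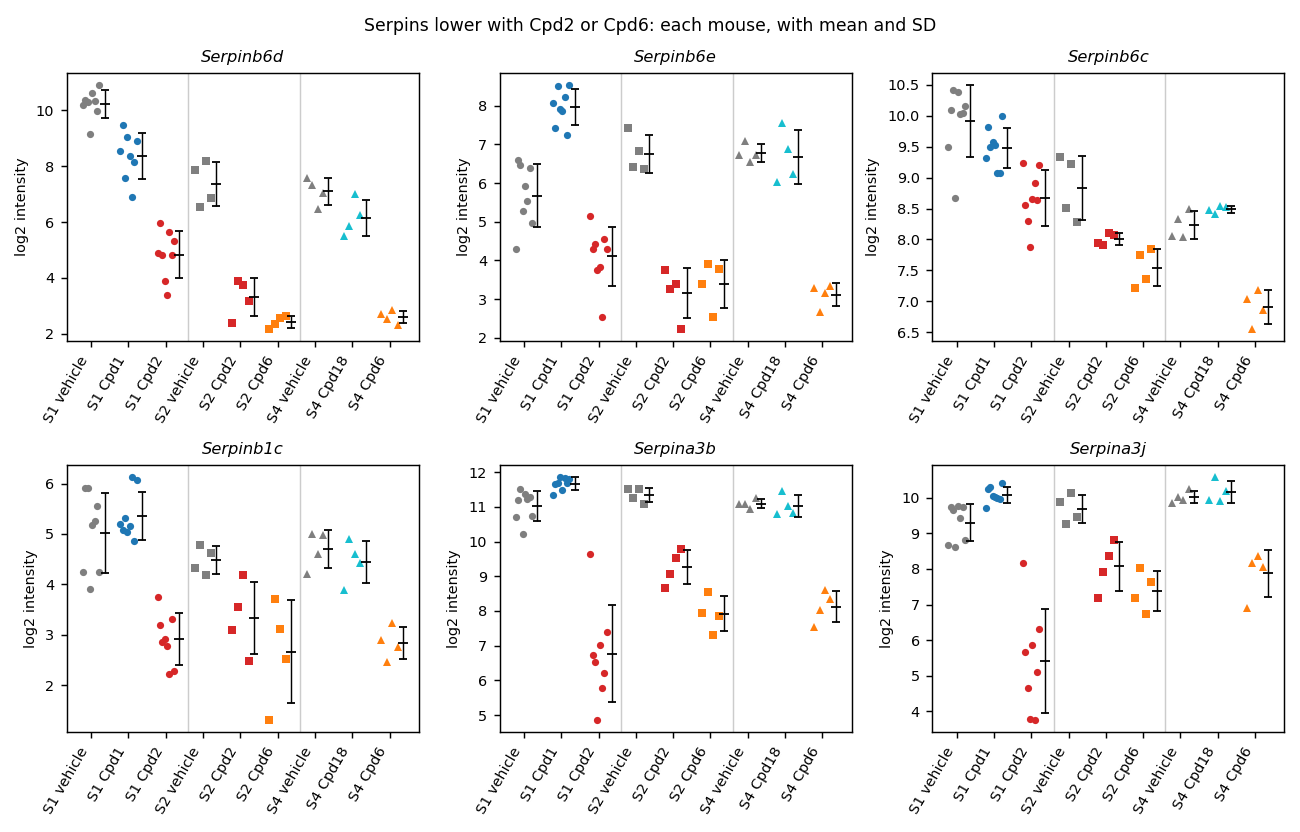
Log2 intensity of the lowered serpins in every mouse, by study and treatment (points), with the group mean and SD (bars). Serpinb6d and Serpina3b stand apart from vehicle in each skin-positive group, and Serpinb6e is higher with Cpd1 (7.24 to 8.52) than in the Study 1 vehicle mice (4.29 to 6.59).

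Serpina3b and Serpina3j belong to the expanded mouse family related to human antichymotrypsin. Their promoters are on chr12:104127746-104127995 and chr12:104314320-104314569 (both plus strand), and they are shown because the genes moved together while their promoter letters did not match closely. The motifs and capitals are as above.
Serpina3b: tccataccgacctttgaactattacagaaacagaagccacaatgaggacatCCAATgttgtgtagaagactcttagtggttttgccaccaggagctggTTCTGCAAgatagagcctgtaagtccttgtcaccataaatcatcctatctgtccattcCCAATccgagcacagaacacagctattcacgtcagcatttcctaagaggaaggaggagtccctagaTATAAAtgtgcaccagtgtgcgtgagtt
Serpina3j: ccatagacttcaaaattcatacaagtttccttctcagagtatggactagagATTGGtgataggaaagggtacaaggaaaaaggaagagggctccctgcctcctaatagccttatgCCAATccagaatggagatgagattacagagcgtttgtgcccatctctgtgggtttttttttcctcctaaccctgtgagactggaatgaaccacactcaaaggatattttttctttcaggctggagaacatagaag
These promoters were identical at 133 bases (43.9% of the alignment), while Serpina3b and Serpina3n were identical at 69.0%, and Serpina3n did not pass in any comparison (log2 fold changes from −0.14 to 0.28). CCAAT was in 33.8% of all promoters and in 14 of the 48 serpin promoters, TATAAA in 12.4% and 14, and TTGCNNAA in 9.56% and 13. TGANTCA was in 6.75% and 8. CACGTG (6.02%), TCACNCCAC (1.05%) and the direct repeat of AGGTCA (0.0335%) were in 0 of the serpin promoters.

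In Study 1 the log2 intensity of Serpina3b ran from 10.23 to 11.51 (median 11.22) with vehicle, from 11.35 to 11.87 (median 11.69) with Cpd1 and from 4.85 to 9.64 (median 6.64) with Cpd2. In Study 2 the vehicle mice read 11.52, 11.26, 11.52 and 11.09, the Cpd2 mice 8.67, 9.07, 9.52 and 9.79, and the Cpd6 mice 7.96, 8.56, 7.32 and 7.85. In Study 4 the vehicle mice read 11.09, 11.07, 10.95 and 11.25, the Cpd18 mice 10.79, 11.45, 11.03 and 10.81, and the Cpd6 mice 7.55, 8.02, 8.60 and 8.35. No skin-positive mouse reached the vehicle range of its study, and the Cpd2 mice of Study 1 were the most spread of the groups (SD 1.40, n = 8). The log2 fold change was −4.26 (SE 0.39, adjusted p = 8.43e-08) with Cpd2 in Study 1 and −2.08 (SE 0.25, adjusted p = 0.0014) with Cpd2 in Study 2. With Cpd6 it was −3.43 (SE 0.25, adjusted p = 8.15e-06) in Study 2 and −2.96 (SE 0.19, adjusted p = 7.75e-07) in Study 4. The skin-negative compounds gave 0.64 (adjusted p = 0.491) with Cpd1 and −0.07 (95% interval −0.47 to 0.33, adjusted p = 0.945) with Cpd18.

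Serpina3j took the same order. In Study 1 it ran from 8.61 to 9.77 (median 9.54) with vehicle and from 3.75 to 8.17 (median 5.38) with Cpd2, with no overlap, and its log2 fold change was −3.88 (SE 0.41, adjusted p = 5.79e-07). In Study 4 the vehicle mice read 9.85, 10.03, 9.93 and 10.26 and the Cpd6 mice 6.90, 8.17, 8.37 and 8.05, again without overlap (log2 fold change −2.14, adjusted p = 0.000274). In Study 2 it was −2.29 (adjusted p = 0.00387) with Cpd6, and −1.61 with Cpd2, which did not pass (adjusted p = 0.092) although the groups did not overlap. Serpina3f, a further relative, did not pass in any comparison, with log2 fold changes from −0.64 to 0.74 against vehicle.

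Serpinb1c, a relative of the neutrophil elastase inhibitor Serpinb1a, was a low-intensity probeset that was also called lower. It ran from 3.91 to 5.90 (median 5.22) in the Study 1 vehicle mice and from 2.22 to 3.75 (median 2.89) with Cpd2. In Study 4 the vehicle mice read 4.21, 5.00, 4.60 and 4.98, the Cpd18 mice 3.89, 4.89, 4.59 and 4.42, and the Cpd6 mice 2.89, 2.47, 3.24 and 2.77. The skin-positive groups lay below vehicle without overlap in both studies. The log2 fold change was −2.11 (SE 0.28, adjusted p = 1.63e-05) with Cpd2 in Study 1 and −1.86 (SE 0.23, adjusted p = 0.000449) with Cpd6 in Study 4, while in Study 2 it was −1.15 with Cpd2 (adjusted p = 0.523) and −1.82 with Cpd6 (adjusted p = 0.0914). Serpina1e, a mouse form of alpha-1-antitrypsin, was called only with Cpd6 in Study 4. There its vehicle mice read 7.30, 3.67, 5.96 and 7.60 and its Cpd6 mice 3.88, 3.51, 3.53 and 3.50, so the ranges overlapped. Its log2 fold change was −2.53 (SE 0.75, adjusted p = 0.0439), and the call was lost on leaving out 7 of the 8 mice in turn (adjusted p from 0.0723 to 0.13), the exception being vehicle replicate 2 (0.00348).

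Serping1, the C1 inhibitor of complement and the contact system, fell with Cpd6 in Study 4, where the vehicle mice read 12.15, 12.26, 12.14 and 12.25 and the Cpd6 mice 11.84, 11.72, 11.88 and 12.03. The groups did not overlap, and the log2 fold change was −0.33 (adjusted p = 0.00854). This call was lost with the test of the study's methods after adjustment, and Serping1 was not called between Cpd6 and Cpd18. In the same comparison 1 of the 2 Serpinb5 probesets gave −0.26 (adjusted p = 0.042), which was lost on leaving out 7 of the 8 mice in turn, and the other probeset gave −0.13 (adjusted p = 0.22).

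The raised members were called with Cpd2 in Study 1, and 5 of the 7 raised genes (Serpinb5, Serpinb7, Serpinb2, Serpinb10 and Serpinb8) belong to the clade B cluster on chromosome 1. That cluster holds 11 of the 44 serpin genes on the array, and its tested members Serpinb11, Serpinb12 and Serpinb13 were not called against vehicle. Serpinb7, an epidermal serpin whose loss in people causes a thickening of palm and sole skin, ran from 8.56 to 9.82 (median 9.52) with vehicle and from 10.22 to 10.57 (median 10.49) with Cpd2. All Cpd2 mice were above all vehicle mice, and the log2 fold change was 1.11 (SE 0.16, adjusted p = 3.54e-05). Serpina12, or vaspin, an inhibitor of the kallikrein Klk7 that is also made by adipose tissue, ran from 6.21 to 7.53 (median 6.86) with vehicle, from 7.26 to 8.08 (median 7.61) with Cpd1 and from 7.78 to 8.22 (median 8.10) with Cpd2. The Cpd2 mice did not overlap with vehicle and the Cpd1 mice did. Its log2 fold change was 1.17 (SE 0.16, adjusted p = 1.93e-05) with Cpd2 and 0.76 (SE 0.16, adjusted p = 0.0361) with Cpd1, and the latter call was lost on leaving out 9 of the 16 mice in turn.

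The other raised genes changed by under 1 on the log2 scale. Serpinb2, the plasminogen activator inhibitor found in the cornified envelope, rose by 0.78 (adjusted p = 4.88e-05), from a vehicle range of 8.56 to 9.50 to a Cpd2 range of 9.70 to 10.19. Serpinb8, an inhibitor of furin-type proteases, rose by 0.72 (adjusted p = 0.000119), from 7.25 to 7.73 with vehicle to 8.02 to 8.42 with Cpd2. The groups did not overlap for either gene. Serpinb5, or maspin, an epithelial serpin without known protease inhibition, rose by 0.53 (adjusted p = 8.52e-05) and 0.42 (adjusted p = 0.00045) on its 2 probesets. Serpinb9b, a relative of the granzyme B inhibitor Serpinb9, rose by 0.88 (adjusted p = 0.00351). Serpinb10 rose by 0.64 (adjusted p = 0.00584), a call that did not hold when the 3 Cpd2 mice with the least muscle signal were left out (0.58, adjusted p = 0.0599). None of the 7 genes was called against vehicle in Study 2. With Cpd6 there, Serpinb2 was at 0.76 (adjusted p = 0.0576) with all 4 mice above vehicle, Serpinb10 at 0.88 (adjusted p = 0.16) likewise, and Serpinb7 at 0.57 (adjusted p = 0.105) with overlap. In Study 4 the log2 fold changes with Cpd6 were 0.15 for Serpinb2 and 0.05 for Serpinb7, and neither passed.

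**Figure D3:**
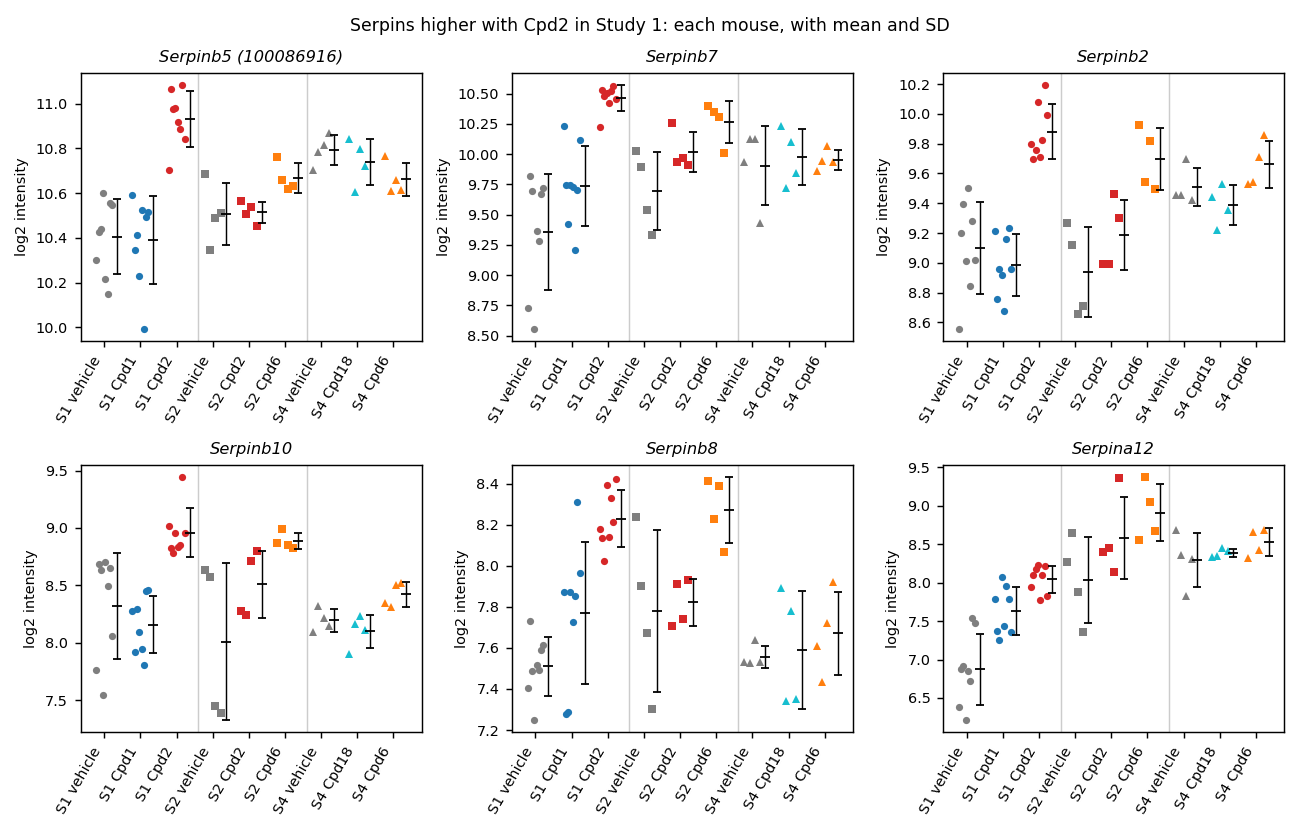
Log2 intensity of the serpins raised by Cpd2 in Study 1 in every mouse (points), by study and treatment, with group mean and SD (bars). The Study 1 Cpd2 mice lie above their vehicle mice for Serpinb7 (10.22 to 10.57 against 8.56 to 9.82), whereas in Study 4 the groups overlap.

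The remaining tested serpins were called in no comparison with vehicle. They were Serpina3n (an acute-phase serpin), Serpina3f, Serpina9, Serpina10 (which inhibits coagulation factor X with protein Z), Serpina11, Serpinb6a, Serpinb6b, Serpinb9, Serpinb11, Serpinb12, Serpinb13, Serpind1 (heparin cofactor II), Serpine3, Serpinf2 (the plasmin inhibitor), Serpinh1 (the collagen chaperone) and 1 probeset of Serpini1 (neuroserpin). Serpinh1 ranged from −0.14 to 0.10 in log2 fold change against vehicle and Serpinb13 from −0.19 to 0.26. Among the 15 probesets below the filter, a fit without the filter called Serpina3i higher with Cpd2 in Study 1 (0.76, adjusted p = 0.0156) and the low Serpini1 probeset lower with Cpd6 in Study 4 (−0.62, adjusted p = 0.0214) and higher with Cpd2 than with Cpd1 in Study 1 (0.64, adjusted p = 0.0221).

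The compounds were compared directly in 3 pairs. Between Cpd2 and Cpd6 in Study 2, 0 serpins were called by limma (background 0%), with 6 at an unadjusted p under 0.05. All Cpd2 mice were above all Cpd6 mice for 2 probesets and below for 4, against 2.04% and 2.79%. Serpina3b was higher with Cpd2 in all 4 mice (1.34, 95% interval 0.82 to 1.87), but this did not pass over all probesets (adjusted p = 0.204), and Serpinb6e differed by −0.24 (95% interval −1.0004 to 0.51). Between Cpd6 and Cpd18 in Study 4, 6 serpins were lower with Cpd6 and 0 higher, against 0.441% and 0.0486% of all probesets (0.49% in either direction). These were Serpinb6d, Serpinb6e (−3.56, adjusted p = 3.71e-06), Serpina3b (−2.89, adjusted p = 1.33e-06), Serpina3j (−2.28, adjusted p = 0.000156), Serpinb6c (−1.57, adjusted p = 1.17e-05) and Serpinb1c (−1.61, adjusted p = 0.00217). For each of the 6 the Cpd6 mice lay below every Cpd18 mouse, and for 1 other (Serpinb10) above, against 3.65% and 2.72%. Between Cpd2 and Cpd1 in Study 1, not at a matched dose by the histology text, 8 probesets were higher and 6 lower with Cpd2, against 8.99% and 8.25% (17.2% in either direction), and 4 and 5 did not overlap (1.6% and 1.54%). The lower 6 were the same genes, with Serpina3b at −4.90 (adjusted p = 6.66e-09), Serpinb6e at −3.87 (adjusted p = 1.52e-08) and Serpinb6d at −3.53 (adjusted p = 2.05e-07). All 6 Hox genes of body position (median log2 fold change −1.50) and all 19 muscle markers (median −2.30) were lower with Cpd2 in the same comparison. The Hox mean ran from 4.98 to 6.61 with Cpd2 and from 6.85 to 7.73 with Cpd1. These ranges do not overlap, so Hox level and compound cannot be told apart in this pair. With the mean of the Hox genes as a covariate 3 serpins were called in place of 14, namely Serpinb6d (−4.40, adjusted p = 0.00746), Serpina3b (−2.81, adjusted p = 0.0497) and Serpinb2 (1.06, adjusted p = 0.0485). Serpinb6e was then at −1.81 (adjusted p = 0.0696). Serpinb12, a widely expressed inhibitor of trypsin-like proteases, was higher with Cpd2 than with Cpd1 by 0.88 (adjusted p = 0.0113) but not than vehicle (0.36, adjusted p = 0.35). The former call was lost with the muscle, Hox or sebaceous gland mean as a covariate and without the 3 Cpd2 mice of least muscle signal.

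The effect of Cpd2 was also compared between Studies 1 and 2, in a single fit over all 48 mice. It differed for 3 serpin probesets, against 0.726% of all. Serpina3b fell further in Study 1 (difference −2.18, SE 0.55, adjusted p = 0.0447), Serpinb6e fell less there (2.02, SE 0.52, adjusted p = 0.0463), and 1 Serpinb5 probeset rose more (0.52, adjusted p = 0.029). None of these differences was called once the 3 Study 1 Cpd2 mice with the least muscle signal were left out. The effect of Cpd6 differed between Studies 2 and 4 for 0 serpins by limma (background 0%), with 4 at an unadjusted p under 0.05.

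In Study 1 genes of body position differed between the Cpd1 and vehicle mice, as did Serpinb6d and Serpinb6e. The mean log2 intensity of 6 Hox genes that mark position along the trunk ran from 5.49 to 6.30 in the Study 1 vehicle mice, from 6.85 to 7.73 with Cpd1 and from 4.98 to 6.61 with Cpd2, while the means of the groups in Studies 2 and 4 lay between 6.93 and 7.30. Of the 6 genes, 3 were higher with Cpd1, with Hoxc10 at 3.18, Hoxa10 at 1.60 and Hoxa9 at 1.27 on the log2 scale. Along with this, the Study 1 vehicle mice had the highest mean Serpinb6d (10.23, against 7.36 and 7.11 in the vehicle mice of Studies 2 and 4) and the lowest mean Serpinb6e (5.68, against 6.75 and 6.77). The Hox ranges of the vehicle and Cpd1 mice did not overlap, so Hox level and Cpd1 treatment cannot be told apart within Study 1. With the Hox mean as a covariate, added after the values were seen, 0 of the 3 Cpd1 calls remained. Serpinb6e was then at 0.39 (adjusted p = 0.857) and Serpinb6d at −1.05 (adjusted p = 0.683). The Cpd2 calls against vehicle in Study 1 numbered 14 with the covariate too, with Serpinb6d at −5.46. The Cpd2 and vehicle mice of Study 1 had Hox means of 5.82 and 5.93. Within groups, over all 48 mice, Serpinb6e followed the Hox mean (Pearson's r = 0.482, adjusted permutation p = 0.0172, Spearman's rho = 0.357, adjusted permutation p = 0.0979), but r was 0.269 without the 2 mice farthest on the Hox axis and 0.726, −0.457 and 0.0734 in Studies 1, 2 and 4, so the relation did not hold beyond Study 1. Serpinb6d (r = −0.321, adjusted permutation p = 0.174) and Serpinb6c (r = −0.0122, adjusted permutation p = 0.968) did not pass. The labels name the same skin site for all mice, and whether the biopsies came from the same position was not tested.

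**Figure D4:**
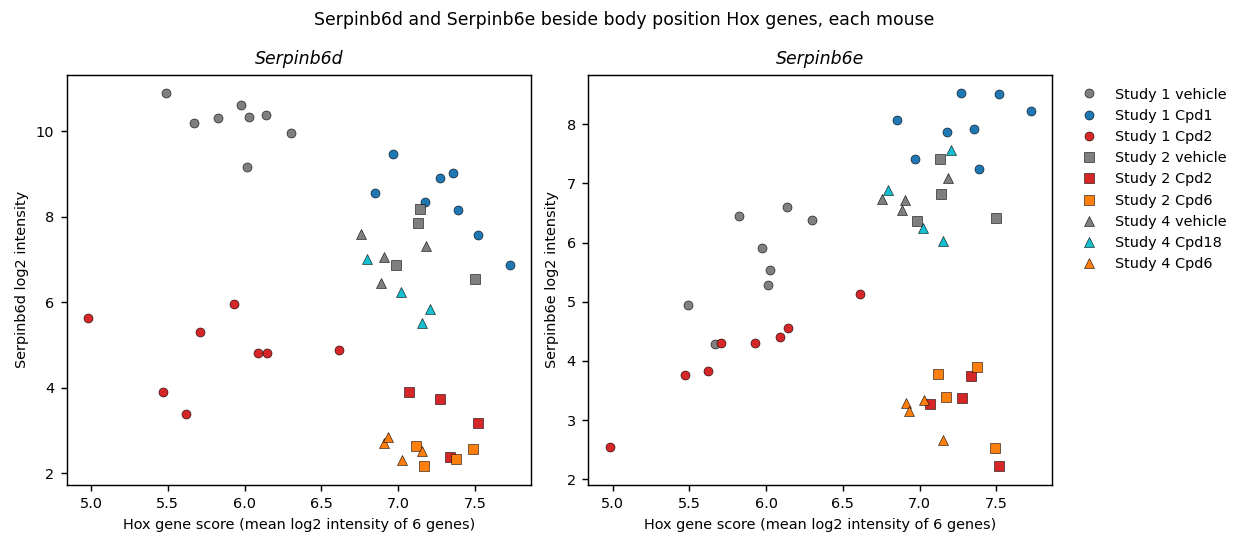
Log2 intensity of Serpinb6d and Serpinb6e against the mean log2 intensity of 6 Hox genes, 1 point a mouse, marked by study and treatment. The Study 1 vehicle mice (Hox mean 5.49 to 6.30) and Cpd1 mice (6.85 to 7.73) are apart on the horizontal axis, and Serpinb6e is higher and Serpinb6d lower in the latter.

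Some sebaceous gland markers were called lower in the same comparisons as the lowered serpins, and fewer of them in Study 2. Of 18 tested probesets on that list, Cpd2 in Study 1 lowered 6 and raised 1, against 6% and 7.09% of all probesets, with the desaturase Scd3 at −3.68, the elongase Elovl3 at −1.18, the wax synthase Awat1 at −1.03 and Gldc at 0.85. Cpd6 in Study 4 lowered 6 (6.17%), Cpd6 in Study 2 lowered 2 (0.288%) and Cpd2 in Study 2 lowered 1 (0.0868%). The median log2 fold change over the list was −0.42 with Cpd2 in Study 1 and −0.21 with Cpd6 in Study 4. In Study 2 it was −0.07 with Cpd6 and −0.04 with Cpd2. The mean over the list ran from 8.62 to 9.39 in the Study 1 vehicle mice and from 8.24 to 9.07 with Cpd2. In Study 4 it ran from 9.05 to 9.17 with vehicle, from 9.01 to 9.21 with Cpd18 and from 8.58 to 8.87 with Cpd6. The Cpd6 and vehicle ranges of Study 4 did not overlap, so gland markers and treatment cannot be told apart there. With this mean as a covariate, added after the values were seen, the number of serpins called with Cpd6 in Study 4 was 2 (Serpinb6d at −4.22 and Serpina3b at −2.05) in place of 9, and with Cpd2 in Study 1 it was 11 in place of 14. Of the calls lost in Study 4, Serpinb6e was then at −3.28 (adjusted p = 0.0694, against −3.66 without the covariate), Serpinb6c at −1.31 (adjusted p = 0.123, against −1.32) and Serping1 at −0.37 (adjusted p = 0.435, against −0.33). Serpina3j was at −0.73 (adjusted p = 0.344), Serpinb1c at −1.25 (adjusted p = 0.409), Serpina1e at −1.62 (adjusted p = 0.785) and the Serpinb5 probeset at −0.23 (adjusted p = 0.683).

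Within groups, the 45 relations of 9 serpins with 5 marker means were computed over the 48 mice, each value taken as the difference from its group mean, and 12 had an adjusted permutation p under 0.05 for Pearson's r, 4 of them with the sebaceous gland mean. These relations were chosen after the values were seen. Serpina3b followed the sebaceous gland mean (Pearson's r = 0.782, adjusted permutation p = 0.000112, Spearman's rho = 0.8, adjusted permutation p = 0.00015). The raw permutation p was 1e-05, the smallest that 100000 permutations can give, and without the 2 mice farthest on the marker axis r was 0.759. Within Studies 1, 2 and 4 it was 0.811, 0.593 and 0.799. Serpina3j gave r = 0.764 and rho = 0.846 (adjusted permutation p = 0.000112 and 0.00015, r = 0.779 without the 2 mice), with 0.769, 0.645 and 0.92 by study. Serpinb6c gave r = 0.778 and rho = 0.672 (adjusted permutation p = 0.000112 and 0.000225, r = 0.629 without the 2 mice), but by study 0.86, 0.736 and 0.0124, so the relation did not hold in Study 4. Serpinb1c gave r = 0.42 (adjusted permutation p = 0.0439) and rho = 0.333 (adjusted permutation p = 0.137). Serpinb6d and Serpinb6e did not pass, with r = 0.336 and 0.331 (adjusted permutation p = 0.106 and 0.174). Beyond the gland, Serpinb6c followed the muscle mean (r = 0.477, adjusted permutation p = 0.0152, rho = 0.38, adjusted permutation p = 0.0796, r = 0.528 without the 2 mice), with 0.556 in Study 1 but −0.0294 and −0.0434 in Studies 2 and 4. Serpina1e followed the differentiated keratinocyte mean (r = 0.532, adjusted permutation p = 0.00964, rho = 0.498, adjusted permutation p = 0.0104, r = 0.414 without the 2 mice). With the Hox mean, Serpina3j gave r = 0.539 (adjusted permutation p = 0.039) and rho = 0.257 (adjusted permutation p = 0.229), and r = 0.204 without the 2 mice, so the relation rests on those mice. Serpinb1c gave r = 0.429 and rho = 0.418 there (adjusted permutation p = 0.0152 and 0.0407), and r = 0.332 without the 2 mice, with 0.582, 0.146 and 0.0745 by study. Another passing relation, that of Serpinb6e with the Hox mean, is given above. The rest were with the hair follicle mean, positive for Serpina1e and negative for Serpinb6c and Serpinb7. The mice fell into separate ranges of that mean, so no pooled r is given. All values of a mouse come from 1 array, so they share its RNA and its normalization.

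**Figure D5:**
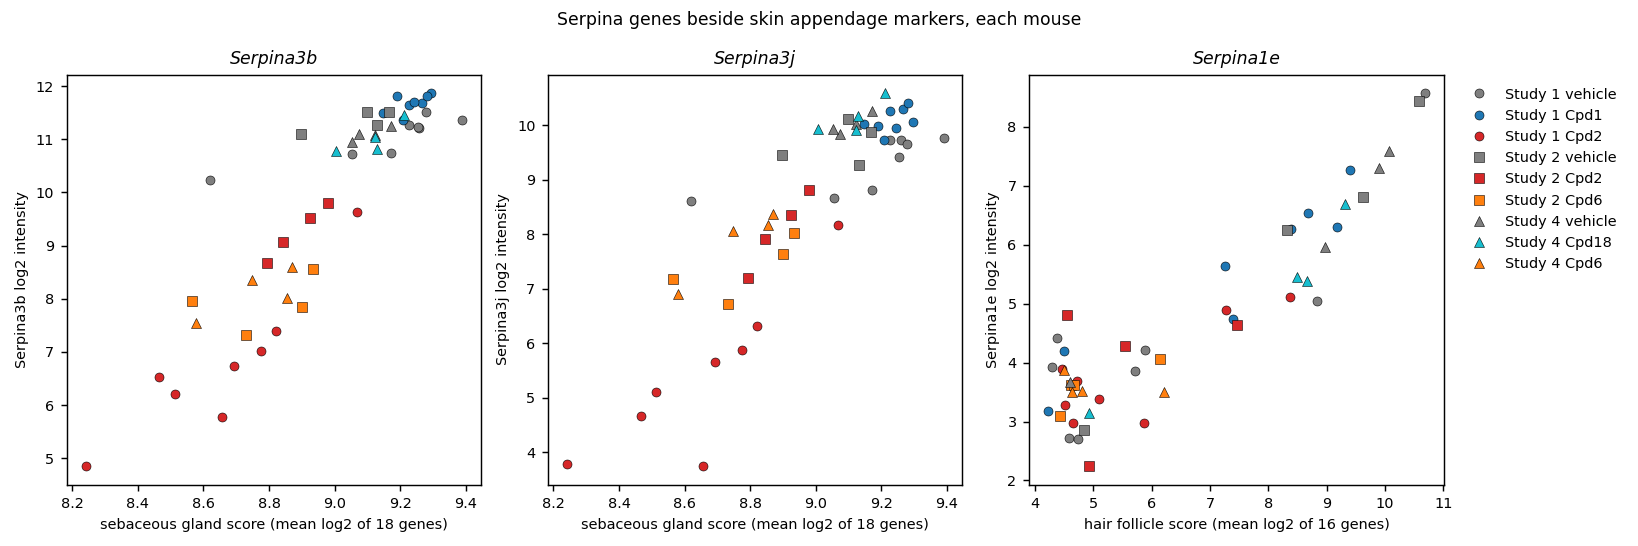
Log2 intensity of Serpina3b and Serpina3j against the mean log2 intensity of 18 sebaceous gland markers, and of Serpina1e against that of 16 hair follicle growth markers, with 1 point a mouse marked by study (shape) and treatment (colour). Skin-positive mice lie low on the serpin axes of the gland panels, while in Studies 1 and 2 the marker values of Cpd2 and vehicle mice overlap (8.24 to 9.07 against 8.62 to 9.39 in Study 1), and the 20 mice with hair follicle values of 7.25 or more hold the Serpina1e values above 4.82.

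Serpina1e was higher in mice with a high signal of hair follicle growth markers. The growth phase of the hair itself was not observed. The mean of 16 hair follicle growth markers fell into separate ranges, 4.22 to 6.20 in 28 mice and 7.25 to 10.68 in 20 mice, and both ranges occurred in every group except the 2 groups on Cpd6. Serpina1e ran from 2.25 to 4.82 (median 3.57) in the former and from 4.64 to 8.57 (median 6.26) in the latter. Within the 20 mice r was 0.893 and rho 0.863 (both with a permutation p of 1e-05, and r = 0.829 without the 2 farthest mice). Within the 28 mice r was 0.0768 (permutation p = 0.701) and rho was −0.132 (permutation p = 0.503). Both sets pool mice of several groups and studies without taking off group means, so differences between groups enter these values. All 4 Cpd6 mice of Study 4 lay in the lower range (4.49 to 6.20), and with the hair follicle mean as a covariate the Serpina1e change there was −0.34 (adjusted p = 0.707). Vehicle mice of that study ran from 4.60 to 10.07 on this marker mean (group mean 8.39, against 5.03 with Cpd6). Hair follicle level and treatment can therefore hardly be told apart there.

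The proteases and other inhibitors that serpins work beside were described from lists. With Cpd2 in Study 1, 9 of 15 epidermal serine proteases were higher and 0 lower, against 7.09% and 6% of all probesets, with Klk11 at 1.05, Tmprss4 at 1.00 and Klk6 at 0.91, kallikreins and a membrane protease of the epidermis. Among proteases of mast cells, neutrophils and lymphocytes 4 of 10 were higher, with the granzyme Gzmc at 0.98, cathepsin G (Ctsg) at 0.59 and the chymase Mcpt4 at 0.58. Cpd2 against Cpd1 gave 1 of these 10 higher and 1 lower, against 8.99% and 8.25% of all probesets. The mean of the mast cell markers in Study 1 was 7.19 with vehicle, 7.59 with Cpd1 and 7.53 with Cpd2. Of the other protease inhibitors 7 of 25 were higher, led by the secreted inhibitor Wfdc5 at 1.15 and the metalloprotease inhibitor Timp1 at 0.94. Of the coagulation and fibrinolysis list 2 of 11 were higher, namely tissue factor (F3) at 0.66 and the thrombin receptor F2r at 0.32. In the same comparison 9 of 15 differentiated keratinocyte markers were higher, and all 19 muscle markers were lower, with a muscle mean as low as 5.67 in 1 mouse. Without the 3 Cpd2 mice of least muscle signal, 13 serpins were called in place of 14.

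With Cpd6 in Study 4, where 4.56% of all probesets were higher and 6.17% lower, most of the called genes of these lists were lower. Of 9 complement genes 4 were lower, the C1q chains C1qb at −1.26, C1qc at −1.14 and C1qa at −1.12, and the protease C1ra at −0.75, which Serping1 inhibits. The list of cysteine proteases and caspases also holds the aspartic protease Ctsd. Of its 11 tested genes 6 were lower, with Ctsc at −0.85 and Ctsk at −0.59. Of 9 macrophage and monocyte markers 7 were lower, a list that shares C1qa and C1qb with the complement genes above. Of the other inhibitors 5 of 25 were lower, with Wfdc18 at −2.83, Spink12 at −2.38 and Stfa2 at −2.35, while 2 epidermal serine proteases were higher, Klk10 at 1.45 and Klk6 at 1.11. In Study 2, and with Cpd1 and Cpd18, 0 genes of these protease and inhibitor lists were called by limma, where the share called of all probesets was 0.129% with Cpd2 and 0.379% with Cpd6 in Study 2, 0.327% with Cpd1 and 0.00347% with Cpd18. The macrophage median log2 fold change was nonetheless −0.727 with Cpd18 and −0.732 with Cpd6, with 8 of 9 markers at an unadjusted p under 0.05 in each. At that p with Cpd18 were also 5 of 11 genes of the cysteine protease list and 4 of 9 complement genes (9 and 5 with Cpd6). Between Cpd6 and Cpd18, 0 genes of these lists were called (background 0.49%), with a macrophage median of 0.00662. The part of macrophage, hair follicle and gland content in these values was not tested beyond the covariate fits given above.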

How the data were processed

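Log2 intensities of 48 mice in 9 groups were computed from the table of linear intensities that the authors deposited, which per the labels was made with RMA (background correction, quantile normalization and probeset summary across arrays). Deposited intensities ran from 1.60 to 13570, and array medians from 26.4 to 30.8. Precision is limited by the number of arrays. Fits used limma 3.58.1 in R 4.3.3, per study, with eBayes (trend), after leaving out probesets below the 25th percentile of mean log2 intensity. Adjustment was by Benjamini-Hochberg over 28789 probesets, called at 0.05. Differences between studies came from a single fit. Relations, promoter searches and plots used Python 3.11.15, numpy 2.4.6, pandas 2.3.3, biopython 1.88 and matplotlib 3.10.9. The scripts were tested on simulated data. The members, lists and tests were chosen with earlier results of these data known. All serpins are accounted for. Those called against vehicle with a change of 1 or more on the log2 scale are given with values or ranges of their mice. The other called serpins are given with their log2 fold changes. Of the serpins not called against vehicle, some are given with values or ranges and the rest by name alone. Alternatives covered the filter, scaling, array weights, a replicate block, a fit over all arrays, the methods' test (0.01 and 1.2-fold), marker covariates and leaving out each mouse. Serpin genes outside the naming rule or the table were not analysed here.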

Additional observations from a re-analysis of the deposited data

Results flagged for a closer look

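Of 153 sets of 4 or 8 mice of 1 group checked, each for 1 serpin, 6 had a mouse far from the others of its group, and chance gives about 1 in 20. For Serpinb7 it was Study 1 Cpd2 replicate 1 at 10.22, for Serpinb2 Study 4 vehicle replicate 3 at 9.70, and for Serpinb10 Study 1 Cpd2 replicate 7 at 9.45. For Serpinb8 it was Study 4 vehicle replicate 3 at 7.64. For Serpina1e it was Study 1 vehicle replicate 4 at 8.57 and Study 4 Cpd6 replicate 1 at 3.88, all in log2 intensity. The effect of Cpd2 differed between Studies 1 and 2 by −2.18 for Serpina3b, 2.02 for Serpinb6e and 0.52 for a Serpinb5 probeset on the log2 scale, in the test of that difference itself.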

How the results depend on the processing

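The counts of serpins called depended on the processing as follows. For Cpd1 in Study 1 (3) the methods' test with adjustment gave 1, the methods' threshold 5 and the Hox covariate 0. For Cpd2 in Study 2 (3) array weights gave 5 and the methods' test with adjustment 0. For Cpd6 in Study 2 (5) they gave 11 and 0, the fit over all 48 arrays gave 8 and the sebaceous gland covariate 3, and leaving out a mouse gave 4 to 11, the highest without vehicle replicate 1. The sebaceous gland covariate gave 2 for Cpd6 in Study 4 (9) and 1 for Cpd6 against Cpd18 (6), where the methods' test with adjustment gave 0. For Cpd2 against Cpd1 (14) the Hox covariate gave 3, and the sebaceous gland covariate turned Serpinb6c to 0.33. The methods' threshold gave 2 for Cpd2 against Cpd6 (0). For the difference of the Cpd2 effect between studies (3) the count was 1 with no filter, 8 with array weights, 0 with the muscle covariate, 0 without the 3 Cpd2 mice of least muscle signal, and 0 to 7 on leaving out a mouse. Array weights gave 1 for the difference of the Cpd6 effect (0). The cause was not tested.

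The median correlation of the deviations of same-numbered mice was −0.0379, −0.0298 and 0.108 in Studies 1, 2 and 4. For mice of different numbers it was 0.0146, 0.0103 and −0.0443. In Study 4, 7 of 12 same-numbered pairs were over 0.1, against 10 of 36 others. Whether the numbers stand for a shared factor was not tested. With the replicate number as a block the count for the Cpd2 effect was 1, and the other counts stayed within 1.5 times. Near background, as for Serpinb6d with Cpd6, intensities bound the change that can be read.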
